A study of Bos taurus with 10 samples.

Results

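The respiratory chain of the inner mitochondrial membrane passes electrons from food-derived carriers to oxygen and uses the energy to make ATP. Complex I takes electrons from NADH and complex II takes them from succinate. Complex III hands them on to cytochrome c, complex IV reduces oxygen, and complex V, the ATP synthase, is driven by the proton gradient that the chain builds. Newborn heart muscle relies on this machinery, and several of its small subunits exist as a broadly expressed isoform and a heart and muscle isoform. The genes described here, called members, were taken by a rule on their symbols, chosen with earlier results of these data known. Each has a single gene symbol in the array's annotation that starts with NDUF, SDH, UQCR, ATP5 or COX followed by a digit. The assembly factors named NDUFAF and SDHAF were left out. The members were 86 genes on 111 probe sets, of 9155 named genes on 13292 probe sets. Complex I had 38 genes, complex II 4, complex III 8, complex IV 19 and complex V 17.

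Right ventricle was taken from 10 male Holstein calves and hybridised to the Affymetrix Bovine GeneChip, on which several short probes, together a probe set, measure 1 transcript, with 1 array per calf. The control group was 5 calves kept at ambient pressure at 1525 m, and the hypoxia group, titled PH in the labels, was 5 calves kept under reduced pressure matching 4570 m. Exposure lasted 14 days in both groups and started at postnatal days 3 to 7, so all animals were newborn when it started. The controls were not at sea level. Values are log2 expression, differences are given as hypoxia minus control with their SE, from 5 calves in each group, and a gene is represented by its brightest probe set unless stated.

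Whole tissue was measured, in which fewer cells of a type and less RNA per cell cannot be told apart. Cardiomyocyte markers were bright, with 8 of 10 listed genes measured at means of 12.2 to 14.2, and 0 of the 8 passed the test. The list mean, taken over their log2 values, ran from 13.59 to 13.68 in controls and from 13.52 to 13.79 in hypoxia. Among markers of other cells the list means of controls and hypoxia overlapped for endothelial (6.80 to 7.18 and 7.04 to 7.51), fibroblast (9.72 to 10.29 and 9.61 to 10.26), smooth muscle (7.56 to 8.61 and 8.03 to 8.95), macrophage (7.16 to 8.39 and 7.54 to 8.64), erythroid (4.01 to 4.91 and 4.16 to 4.63), adipocyte (3.45 to 5.86 and 3.59 to 4.23) and atrial genes (6.29 to 7.34 and 7.33 to 8.84). T lymphocyte markers were dim and did not overlap, with 4.93 to 5.65 in controls and 4.20 to 4.91 in hypoxia. Of all these markers only the fibroblast gene PDGFRA passed, and their part in the results below was not tested.

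No respiratory chain gene passed the test between hypoxia and control. At an adjusted p of 0.05 (limma with Benjamini-Hochberg adjustment over 24016 probe sets), 0 of the 111 member probe sets passed, where 2.71% of all probe sets did, and 0 of 86 genes passed on the brightest probe set, where 3.66% of named genes did. The smallest adjusted p was 0.122 among the genes, for COX8A, and 0.110 among all member probe sets, for a dimmer one of COX19. At an unadjusted p under 0.05, 11 genes were lower and 2 higher in hypoxia. That is 12.8% of the members lower, beside 11.3% of named genes, and 2.33% higher, beside 11.1% of named genes. Over all member probe sets, 18 of 111 (16.2%) were lower at that threshold, beside 8.98% of all probe sets, and 2 (1.80%) were higher, beside 8.69%. The groups did not overlap in 4 genes, NDUFB7, NDUFS5, COX4I1 and ATP5MC2, each lower in hypoxia. This was 4.65% of the members, against 3.72% of named genes with all hypoxia calves below all controls, and 0 members had all hypoxia calves above, against 3.58% of named genes. Among genes with a mean of 10 or more, the share without overlap and lower was 5.13% of members and 5.23% of other named genes. The share lower at an unadjusted p under 0.05 was 14.1% in both. The share higher at that threshold was 2.56% of members and 13.8% of other named genes.

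The differences were small as well as short of the threshold. They ran from -0.35 to 0.31 over the 86 genes, with 50 below 0 and 36 above, and their median was -0.04, beside -0.01 over all named genes. Over the 111 member probe sets the median was -0.07, beside -0.02 over all probe sets. For 77 of the 86 genes (89.5%) the whole 95% interval lay within 0.5 of 0 on the log2 scale, which is a 1.41-fold change either way. The same held for 57.6% of all named genes. Of the 9 genes whose interval reached further, NDUFA10, NDUFA9, NDUFB7, NDUFS7, NDUFS8, NDUFV1, COX8A and ATP5F1D reached a decrease of that size and COX7A2 an increase.

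**Figure D1:**
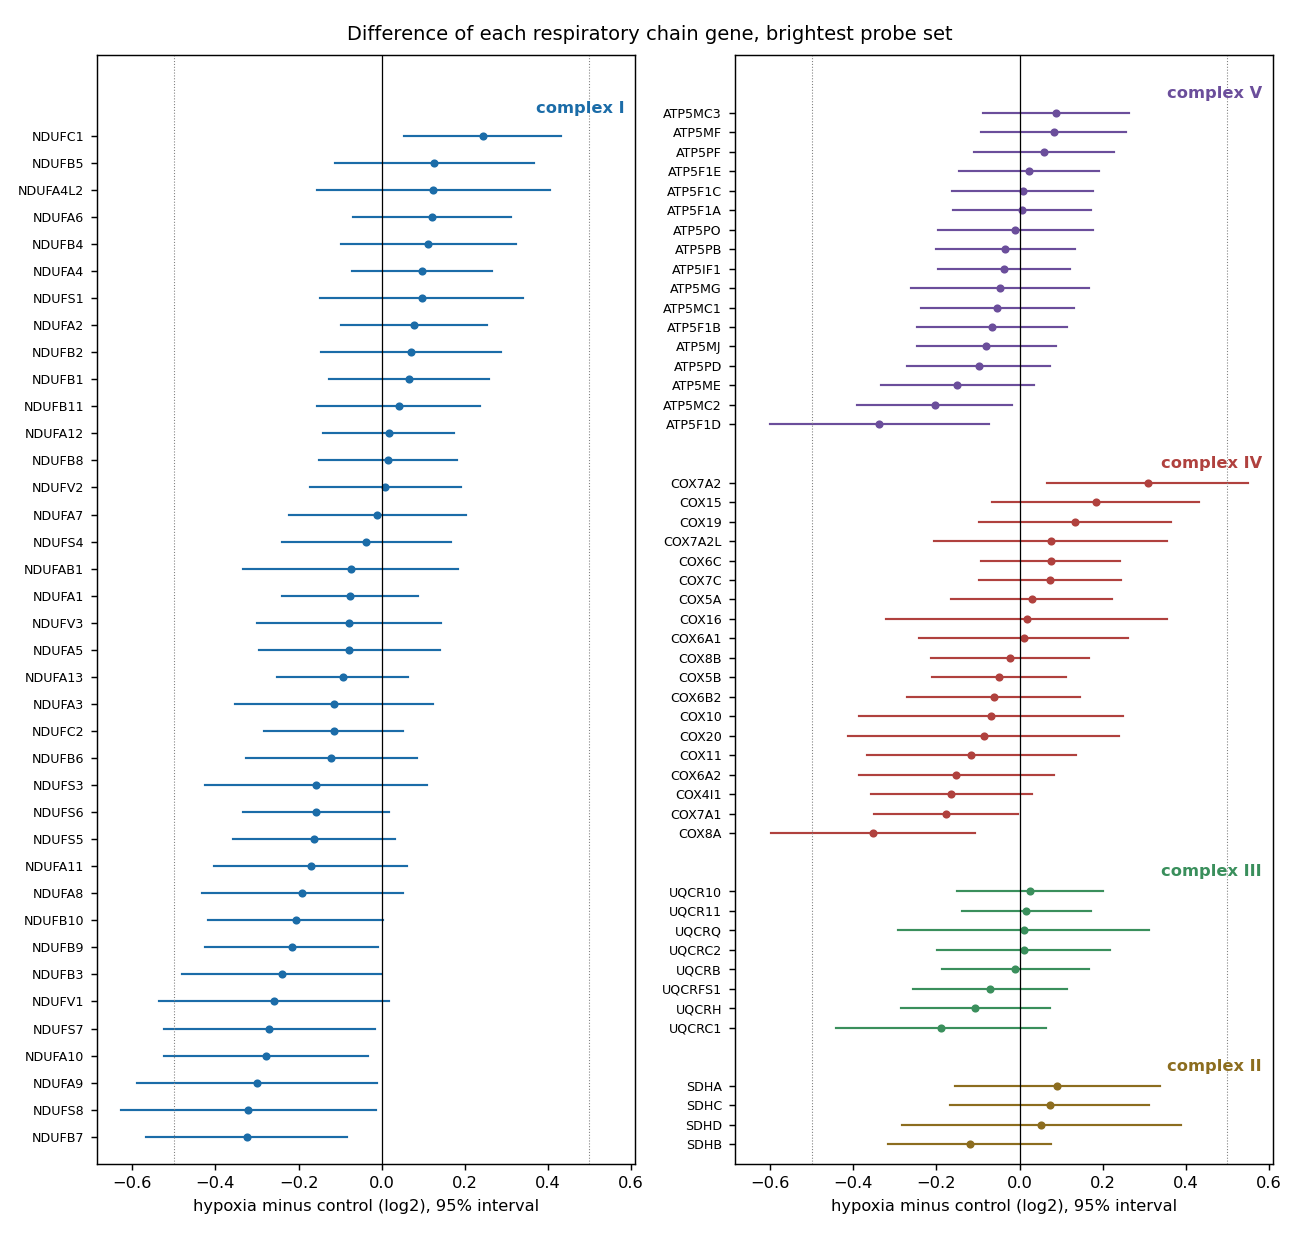
Each point is the difference, hypoxia minus control, of 1 respiratory chain gene on the log2 scale, with its 95% interval from limma (n = 5 calves per group), coloured by complex, and dotted lines mark 0.5 either side of 0. All 86 points lie between -0.35 and 0.31, and COX8A and COX7A2 are the extremes.

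The members were also among the brightest transcripts of the tissue, with a median level of 12.4 against 7.03 over all named genes. Of the 86, 78 had a mean of 10 or more. The other 8 were NDUFA4L2, COX6B2 and the assembly genes COX10, COX11, COX15, COX16, COX19 and COX20. The typical size of a difference, taken as the median without its sign, was 0.08 for members and 0.17 for the 995 other named genes with a mean of 10 or more, 43 of which passed. Within the members it was 0.07 for the 43 genes above their median level and 0.12 for the 43 below it, and all 9 genes whose interval reached past 0.5 were among the dimmer 43. The part of the array's upper range in this was not tested. The spread between calves was also small. The median SD within a group was 0.12 in controls and 0.11 in hypoxia for members, against 0.20 and 0.19 for all named genes.

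**Figure D2:**
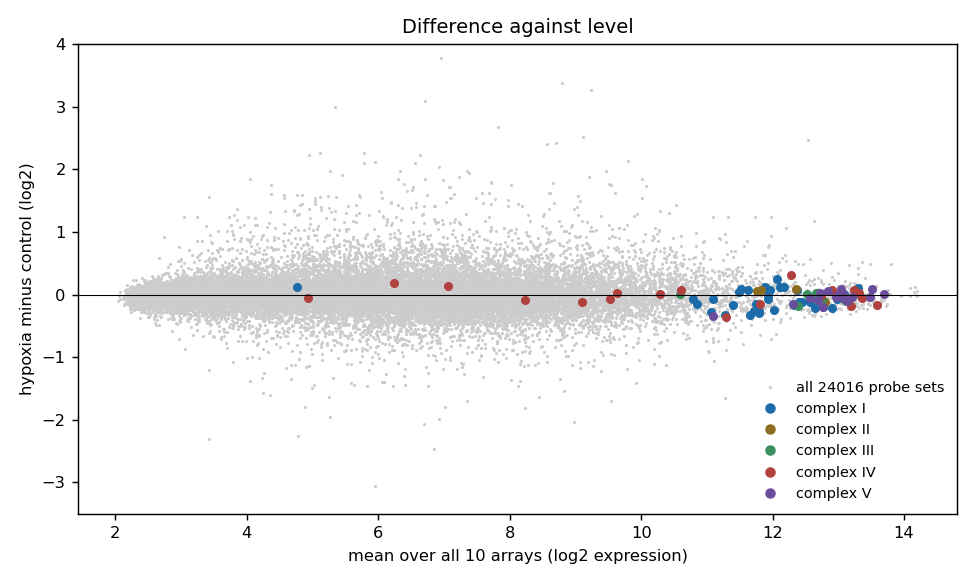
The horizontal axis is the mean log2 expression over all 10 arrays and the vertical axis is hypoxia minus control on the log2 scale, with all 24016 probe sets in grey and the brightest probe set of each of the 86 genes in colour. Members crowd at the bright end, 78 of them at 10 or above, and lie close to 0.

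Complex I, the largest complex and the entry point for electrons from NADH, had 24 of 38 genes below 0 and 14 above, with a median difference of -0.08. At an unadjusted p under 0.05, 7 were lower (18.4%, beside 11.3% of named genes) and 1 higher (2.63%, beside 11.1%). By symbol the 38 take in NDUFA4, which is found with complex IV, and the dim NDUFA4L2, both above 0. The core subunits of complex I carry the flavin and iron-sulphur clusters through which electrons travel. Of the 6 measured, 4 were below 0, with a median of -0.21. NDUFS8, which binds iron-sulphur clusters, was 12.09, 11.89, 11.80, 11.57 and 11.75 in control calves 176, 177, 180, 181 and 195, and 11.76, 11.16, 11.70, 11.26 and 11.61 in hypoxia calves 173, 178, 192, 199 and 204. Hypoxia calves 178 and 199 lay below every control and the other hypoxia calves lay among the controls. The difference was -0.32 ± 0.14 (limma, adjusted p = 0.259), and it was -0.13 without those 2 calves. Because they were the low ones in this gene, leaving them out makes its decrease smaller by construction. Likewise, wherever they lay at 1 end of the hypoxia group in a gene or isoform pair, leaving them out moves the difference away from that end by construction.

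NDUFS7, another iron-sulphur subunit, was 11.85 to 12.06 in controls and 11.89, 11.28, 11.84, 11.63 and 11.67 in hypoxia calves 173, 178, 192, 199 and 204, a difference of -0.27 ± 0.12 (limma, adjusted p = 0.250). NDUFV1, which binds NADH and the flavin, was 11.74 to 12.02 in controls and 11.76, 11.21, 11.77, 11.41 and 11.80 in the same hypoxia calves, a difference of -0.26 ± 0.13 (adjusted p = 0.319). In NDUFS8, NDUFS7 and NDUFV1 calf 178 was the lowest of the 10 animals and calf 199 the second lowest, but in NDUFS1, another core gene, calf 178 was the highest, at 11.71, above the highest control at 11.64. The other core subunits differed by less, with -0.16 ± 0.12 for NDUFS3, 0.01 ± 0.08 for NDUFV2 and 0.10 ± 0.11 for NDUFS1.

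The accessory subunits surround the core of complex I and are needed for its assembly and stability. NDUFB7, in the membrane arm, had the largest difference in complex I. It was 11.68, 11.40, 11.24, 11.43 and 11.41 in control calves 176, 177, 180, 181 and 195 and 11.21, 10.80, 11.20, 11.20 and 11.12 in hypoxia calves 173, 178, 192, 199 and 204. The groups did not overlap, by the narrow gap between control calf 180 and hypoxia calf 173, and the difference was -0.33 ± 0.11 (limma, adjusted p = 0.147). It was -0.25 without calves 178 and 199.

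NDUFA9 and NDUFA10 were the next in size among the accessory genes. NDUFA9, which sits where the arms of the complex meet, was 12.14, 11.81, 11.99, 11.75 and 12.00 in controls and 11.75, 11.23, 11.82, 11.54 and 11.86 in hypoxia, in the same order of calves, a difference of -0.30 ± 0.13 (limma, adjusted p = 0.262). NDUFA10 was 11.45, 10.99, 10.98, 11.27 and 11.31 in controls and 11.07, 10.73, 10.99, 10.88 and 10.93 in hypoxia, a difference of -0.28 ± 0.11 (adjusted p = 0.220). The groups overlapped in both genes, and without calves 178 and 199 the differences were -0.13 and -0.20.

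NDUFC1, a small membrane-arm subunit, went the other way. It was 12.07, 11.94, 11.78, 12.00 and 11.93 in controls and 12.30, 12.17, 12.24, 12.17 and 12.05 in hypoxia, so that 4 of 5 hypoxia calves lay above every control. The difference was 0.24 ± 0.09 (limma, adjusted p = 0.162). It was 0.25 without calves 178 and 199. NDUFS5, an accessory subunit of the membrane arm, was 12.32 to 12.65 in controls and 12.16 to 12.31 in hypoxia without overlap, a difference of -0.16 ± 0.09 (adjusted p = 0.383). The 11 NDUFB genes divided into 5 below 0 and 6 above, and the 13 NDUFA genes, with NDUFAB1, the mitochondrial acyl carrier protein, among them and NDUFA4 and NDUFA4L2 left aside, divided into 10 and 3.

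Complex II, succinate dehydrogenase, also works in the citric acid cycle and is encoded wholly in the nucleus. Its 4 genes had 1 below 0 and 3 above, with a median difference of 0.06, and every 95% interval lay within 0.5 of 0. SDHA, the flavoprotein that oxidises succinate, was 12.22, 12.29, 12.41, 12.18 and 12.48 in controls and 12.45, 12.12, 12.58, 12.28 and 12.60 in hypoxia, a difference of 0.09 ± 0.11 (limma, adjusted p = 0.743). It was 0.23 without hypoxia calves 178 and 199 (adjusted p = 0.424), 0.04 to 0.16 with each calf left out in turn and 0.008 with the run of calf numbers as a block. SDHB, the iron-sulphur subunit, was 12.96, 12.71, 12.92, 12.77 and 12.93 in controls and 12.72, 12.58, 12.84, 12.69 and 12.85 in hypoxia, a difference of -0.12 ± 0.09 (adjusted p = 0.549). The values of the groups interleaved in both genes. SDHC, a membrane anchor, was 11.86, 11.53, 12.02, 11.76 and 11.76 in controls and 12.10, 11.75, 11.78, 11.88 and 11.77 in hypoxia, a difference of 0.07 ± 0.11. The other anchor, SDHD, differed by 0.05 ± 0.15.

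Complex III, the cytochrome bc1 complex, had the smallest typical size of difference of all the complexes on the brightest probe sets. Its 8 genes divided into 4 below and 4 above 0, with a median that rounded to 0.00 and a typical size of 0.02. The dimmer probe sets of UQCRB, UQCRC1 and UQCRC2 differed by -0.55, -0.26 and -0.22, and the median was -0.088 with averaged probe sets. CYC1, a complex III gene outside the symbol rule, differed by -0.20. UQCRC1, a core protein on the matrix side, had the largest difference of the 8. It was 12.54, 12.43, 12.40, 12.36 and 12.70 in controls and 12.37, 12.00, 12.47, 12.17 and 12.49 in hypoxia, a difference of -0.19 ± 0.12 (limma, adjusted p = 0.446). Hypoxia calves 178 and 199 were again the lowest, and without them the difference was -0.04. UQCRFS1, the Rieske iron-sulphur protein that passes electrons towards cytochrome c, was 12.84, 12.72, 12.77, 12.76 and 12.84 in controls and 12.82, 12.58, 12.78, 12.59 and 12.83 in hypoxia, a difference of -0.07 ± 0.08 (adjusted p = 0.733). UQCRH, which helps dock cytochrome c, was 13.29, 13.21, 13.02, 13.21 and 13.10 in controls and 13.13, 13.03, 13.13, 13.04 and 12.98 in hypoxia, a difference of -0.11 ± 0.08.

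Complex V had 11 of 17 genes below 0 and 6 above, with a median of -0.04. The alpha and beta subunits that form the catalytic head, ATP5F1A and ATP5F1B, had means of 13.7 and 13.1 and differed by 0.01 ± 0.08 and -0.07 ± 0.08. ATP5F1D, the delta subunit of the central stalk, was the exception within the head and stalk. It was 11.44, 11.18, 11.25, 11.08 and 11.35 in controls and 11.11, 10.56, 11.06, 10.84 and 11.03 in hypoxia, a difference of -0.34 ± 0.12 (limma, adjusted p = 0.165). Of the 5 hypoxia calves 4 lay below every control, and without calves 178 and 199 the difference was -0.19. A dimmer probe set of this gene differed by 0.07 ± 0.11.

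Subunit c forms the rotating ring of complex V, and 3 genes encode the same mature protein with different import signals. ATP5MC2 was 12.88, 12.78, 13.05, 12.88 and 12.76 in controls and 12.74, 12.69, 12.71, 12.63 and 12.56 in hypoxia. The groups did not overlap, by a gap between control calf 195 and hypoxia calf 173 smaller than the SD in either group, and the difference was -0.20 ± 0.08 (limma, adjusted p = 0.235). ATP5MC1 differed by -0.05 ± 0.08 and ATP5MC3 by 0.09 ± 0.08, so the genes for this protein did not share a direction. ATP5IF1, the inhibitor that stops the synthase from running backwards when oxygen fails, had a mean of 13.5 and differed by -0.04 ± 0.07. ATP5ME, a small membrane subunit, was 12.45, 12.53, 12.33, 12.33 and 12.25 in controls and 12.33, 12.16, 12.28, 12.21 and 12.17 in hypoxia, a difference of -0.15 ± 0.08 with overlapping groups. The peripheral stalk genes ATP5PB, ATP5PD, ATP5PF and ATP5PO differed by -0.10 to 0.06.

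Complex IV, cytochrome c oxidase, held both extremes of the whole set. Of its 19 genes, 10 were below 0 and 9 above, with a median of -0.02. The symbol rule takes in 6 assembly genes, which insert haem and copper or chaperone subunits (COX10, COX11, COX15, COX16, COX19 and COX20). They differed by -0.12 to 0.18, the highest being COX15, which helps make haem A (6.03, 6.20, 6.21, 6.33 and 5.94 in controls and 6.40, 6.29, 6.62, 6.18 and 6.14 in hypoxia), and the median without them was also -0.02. COX4I1, the main regulatory subunit, was 13.76, 13.71, 13.69, 13.58 and 13.61 in controls and 13.55, 13.27, 13.57, 13.57 and 13.57 in hypoxia. The groups did not overlap, but 4 of 5 hypoxia calves lay just under the lowest control, and the difference was -0.16 ± 0.09 (limma, adjusted p = 0.374). COX4I2, the isoform known as a target of hypoxia-inducible factor in cultured human and mouse cells, was not analysed here. COX5A and COX5B, partners of COX4I1 in the nuclear-encoded shell, differed by 0.03 ± 0.09 and -0.05 ± 0.07.

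COX7A2 and COX7A1 encode the broad and the heart and muscle isoform of the same subunit, and the muscle form gains on the broad one in the developing mammalian heart. COX7A2 was 12.32, 12.10, 11.88, 12.06 and 12.27 in control calves 176, 177, 180, 181 and 195 and 12.27, 12.55, 12.30, 12.63 and 12.41 in hypoxia calves 173, 178, 192, 199 and 204. The difference was 0.31 ± 0.11 (limma, adjusted p = 0.168), and 3 hypoxia calves lay above every control. COX7A1 was 13.36, 13.30, 13.27, 13.30 and 13.16 in controls and 13.18, 13.04, 13.16, 12.99 and 13.13 in hypoxia, a difference of -0.18 ± 0.08 (adjusted p = 0.274).

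A difference between the log2 values of 2 isoforms within a calf shows whether they changed unequally, not which is more abundant. For COX7A2 minus COX7A1 it was -1.04, -1.20, -1.40, -1.24 and -0.89 in controls and -0.91, -0.49, -0.87, -0.36 and -0.72 in hypoxia. Hypoxia calves 178 and 199 lay highest, and only control calf 195 reached the hypoxia range. The group means were -1.15 ± 0.19 (SD) and -0.67 ± 0.24, a shift of 0.48, or 1.40-fold, towards the broad isoform in hypoxia (exact two-sided permutation test, p = 0.0159, and 0.0635 after Benjamini-Hochberg adjustment over 4 pairs). With 5 against 5 calves the test cannot give less than 0.00794. Without calves 178 and 199 the shift was 0.32 (exact p = 0.0536), and it was 0.52 within the lower run of calf numbers, 173 to 181, and 0.24 within the upper run, 192 to 204, which holds 1 control. The labels do not call these runs batches. With 1 calf left out the shift passed after adjustment without control calf 195 and without hypoxia calf 173 or 178, and in no other case. Calves 195 and 173 were those of their groups nearest the other group, so leaving out either makes the shift larger by construction. Leaving out calves 178 and 199 together, which lay highest, makes it smaller by construction.

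COX8A and COX8B are the broad and the muscle isoform of another small subunit. COX8A was 11.49, 11.41, 11.41, 11.47 and 11.58 in controls and 11.48, 11.18, 10.94, 11.08 and 10.91 in hypoxia, so that only hypoxia calf 173 lay among the controls. The difference was -0.35 ± 0.11 (1.28-fold lower, limma, adjusted p = 0.122). Without calf 173 it was -0.44 and passed (limma, adjusted p = 0.0375), the only member call in any fit that left out a calf. As calf 173 was the hypoxia calf nearest the controls, leaving it out makes the decrease larger by construction. COX8B differed by -0.02 ± 0.09 on its brightest probe set, with 12.78, 12.77, 12.84, 12.76 and 12.62 in controls and 12.87, 12.55, 12.79, 12.69 and 12.76 in hypoxia, which overlapped widely. Its dimmer probe set differed by -0.29 ± 0.11 (adjusted p = 0.198).

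COX8A minus COX8B was -1.29, -1.35, -1.43, -1.29 and -1.04 in controls and -1.39, -1.36, -1.84, -1.62 and -1.85 in hypoxia. The means were -1.28 ± 0.15 (SD) and -1.61 ± 0.23, a shift of -0.33 away from the broad isoform (exact two-sided permutation test, p = 0.0317, adjusted p = 0.0635). It was -0.20 when the probe sets of each gene were averaged (exact p = 0.159), -0.03 within the lower run of calf numbers and -0.73 within the upper run. It passed after adjustment without hypoxia calf 173 or 178. These were the hypoxia calves nearest the controls, so leaving out either makes the shift larger by construction. The COX7A and COX8 pairs therefore pointed opposite ways, towards the broad form in one and towards the muscle form in the other, and neither passed after adjustment.

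COX6A1 and COX6A2, the broad and muscle isoform of a further subunit, differed by 0.01 ± 0.12 and -0.15 ± 0.11. COX6A1 was 10.48, 10.19, 10.01, 10.39 and 10.34 in controls and 10.19, 10.49, 10.14, 10.47 and 10.17 in hypoxia. COX6A2 was 12.10, 11.85, 11.80, 11.86 and 11.80 in controls and 11.80, 11.45, 11.93, 11.64 and 11.83 in hypoxia, and its difference was -0.03 without calves 178 and 199. The groups overlapped in both, and calf 178 had the highest COX6A1 and the lowest COX6A2. COX6A1 minus COX6A2 was -1.79 to -1.46 in controls. In hypoxia it was -0.96 and -1.18 in calves 178 and 199, above every control, and -1.61, -1.79 and -1.66 in calves 173, 192 and 204, among the controls. The shift was 0.16 (exact permutation p = 0.381, adjusted p = 0.508), and it was -0.08 without calves 178 and 199. As these calves lay highest, leaving them out lowers the shift by construction. The same 2 calves were highest for COX7A2 minus COX7A1, while for COX8A minus COX8B the calves farthest from the controls were 192 and 204.

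NDUFA4L2, an NDUFA4-like protein induced by hypoxia-inducible factor in cultured human and mouse cells, stayed dim. It was 4.85, 4.52, 4.81, 4.56 and 4.77 in controls and 5.18, 4.58, 4.92, 4.59 and 4.85 in hypoxia, and its other probe set differed by 0.11 ± 0.16. The difference on the brightest probe set was 0.12 ± 0.13 (limma, adjusted p = 0.681), with a 95% interval of -0.16 to 0.40. It was 0.03 without hypoxia calf 173, the highest animal, and 0.28 without calves 178 and 199 (adjusted p = 0.383). NDUFA4, named for complex I but found with complex IV, was 13.37, 13.16, 13.22, 13.31 and 13.18 in controls and 13.39, 13.33, 13.33, 13.30 and 13.36 in hypoxia, a difference of 0.10 ± 0.08. Their within-calf difference shifted by 0.03 (exact permutation p = 0.817, adjusted p = 0.817).

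**Figure D3:**
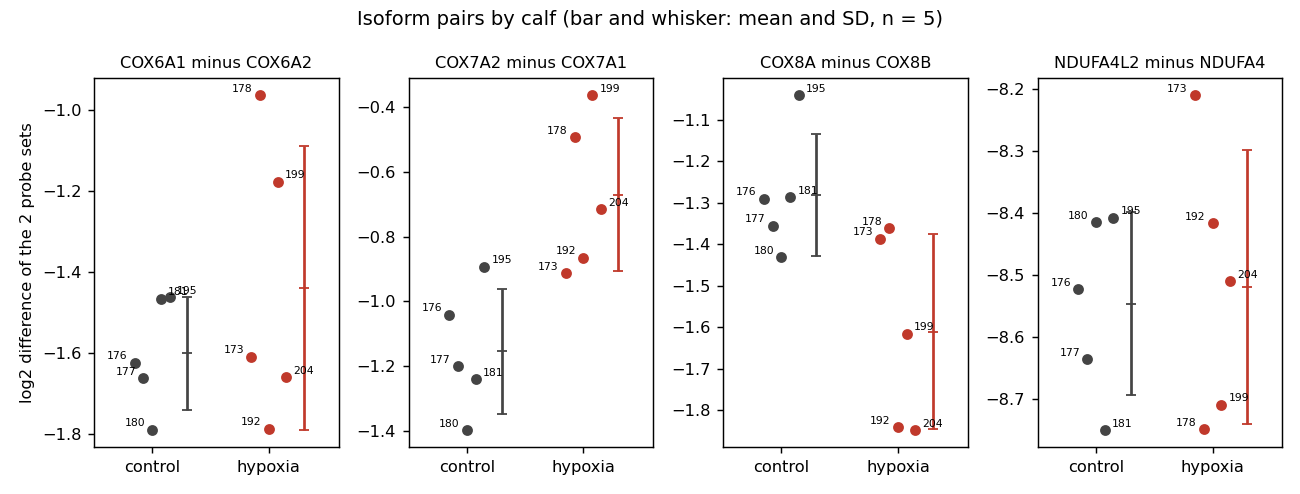
Each panel plots, for 1 isoform pair, the log2 value of the first gene minus that of the second in every calf, with calf numbers beside the points and the group mean and SD (n = 5) as a bar with whiskers. Hypoxia calves 178 and 199 lie highest for COX6A1 minus COX6A2 and for COX7A2 minus COX7A1, while calves 192 and 204 lie lowest for COX8A minus COX8B.

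The groups overlapped in the mean over all members and in that of every complex. The mean over all 86 genes was 12.05, 11.85, 11.91, 11.88 and 11.92 in control calves 176, 177, 180, 181 and 195 and 11.95, 11.77, 11.95, 11.84 and 11.85 in hypoxia calves 173, 178, 192, 199 and 204. Control calf 176 had the highest value of all 10 animals in 44 of the 86 genes and the lowest in 0, and hypoxia calf 178 had the lowest in 33. Next came a control, calf 177, lowest in 18, ahead of hypoxia calves 204 (12) and 199 (4). Hypoxia calves 173 and 192 lay within the control range in each complex, while calf 178 was the lowest of all animals in complexes I, IV and V and calf 199 in complex III. In complex II the extremes were both controls, 12.41 in calf 180 and 11.98 in calf 177.

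The medians were also taken without control calf 176 and without hypoxia calves 178 and 199. In the mean over all members calf 199 did not stand apart, at 11.84 beside 11.85 in hypoxia calf 204 and in control calf 177. Calves 178 and 199 were low in several of these same genes, so leaving them out makes those decreases smaller by construction. Without control calf 176 the medians of complexes I to V were -0.07, 0.03, 0.02, 0.02 and -0.02. Without hypoxia calves 178 and 199 they were -0.04, 0.11, 0.03, 0.0008 and -0.001, and 0 members passed in either fit. Calves 178 and 199 also had the highest means of macrophage markers, 8.53 and 8.64, above control calf 181 at 8.39 and the remaining 3 hypoxia calves at 7.54 to 8.19. Calf 199 had the highest means of atrial markers, 8.84 with the next calf at 7.67, and of smooth muscle markers, 8.95 with the next at 8.61. It had the lowest cardiomyocyte mean, 13.52, and calf 178 had 13.67, close to the control mean of 13.64. The part of cell composition in their values was not tested.

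**Figure D4:**
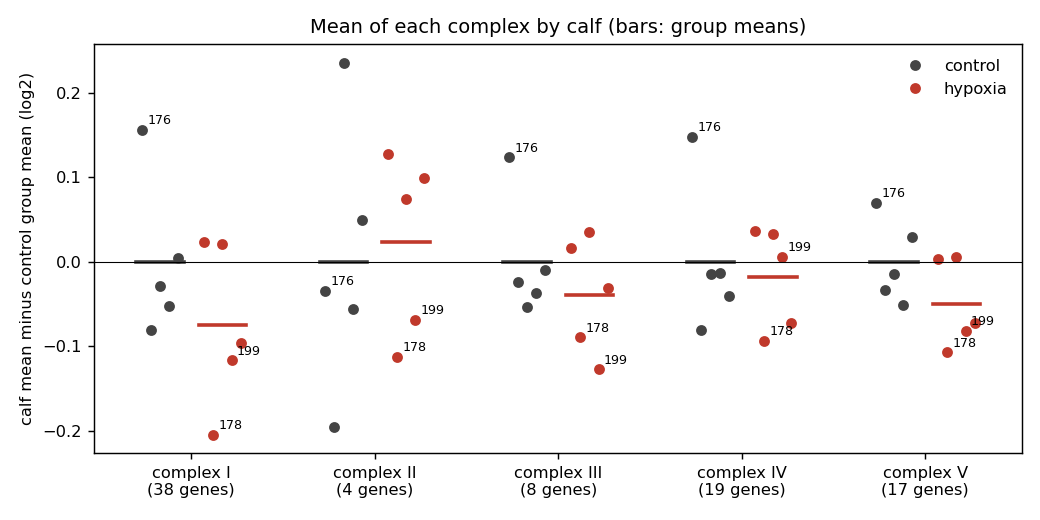
For each complex, points give the mean of its genes in 1 calf minus the mean of the control group (log2), with bars for the group means and the numbers of calves 176, 178 and 199 beside their points. The groups overlap in every complex, control calf 176 is highest in complexes I, III, IV and V, and hypoxia calf 178 is lowest in complexes I, IV and V.

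Several probe sets of 1 gene can read different parts or forms of its transcript, and 22 member genes had more than 1. Some of the dimmer ones were very low, such as 2.58 beside 13.3 for NDUFA4 and 2.73 beside 13.7 for ATP5F1A. Whether such probe sets detect their gene was not tested. In 12 of them the probe sets shared a direction. The 25 probe sets other than the brightest had a median level of 6.13 and a median difference of -0.19, with 19 below 0 and 6 above. At an unadjusted p under 0.05, 7 (28%) were lower and 0 higher, beside 8.98% and 8.69% of all probe sets, and 0 passed after adjustment. UQCRB, a small subunit of complex III, differed by -0.01 ± 0.08 on its brightest probe set and by -0.55 ± 0.20 on one at 9.36 (limma, adjusted p = 0.966 and 0.171). NDUFAB1 differed by -0.07 ± 0.12 on a probe set at 11.9 and by -0.57 ± 0.21 on one at 6.13 (adjusted p = 0.808 and 0.179).

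Beyond the members, the list of assembly factors of the 5 complexes had 25 of 44 genes measured, and 0 passed. They had 19 genes below 0 and 6 above, a median difference of -0.18 and, at an unadjusted p under 0.05, 5 lower (20% of them, beside 11.3% of named genes) and 1 higher (4%, beside 11.1%). COA5, which is needed for complex IV, was 10.40, 10.18, 10.21, 10.18 and 9.98 in controls and 9.88, 9.87, 9.84, 9.91 and 9.83 in hypoxia, without overlap, a difference of -0.32 ± 0.09 (limma, adjusted p = 0.0772). NDUFAF3, a complex I assembly factor, was 11.50, 11.36, 11.08, 11.11 and 11.31 in controls and 11.17, 10.35, 10.98, 10.72 and 10.79 in hypoxia, a difference of -0.47 ± 0.15 (adjusted p = 0.116). TMEM70, which helps build complex V, had a mean of 9.35 in controls and 9.75 in hypoxia with overlapping groups, a difference of 0.40 ± 0.15 (adjusted p = 0.186).

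CYC1, the cytochrome c1 subunit of complex III that the symbol rule does not take in, differed by -0.20 ± 0.11 and was lowest in hypoxia calf 178, at 12.29. Of 11 listed regulators of respiratory chain genes 6 were measured and 0 passed. PPARGC1A, the coactivator that drives mitochondrial gene expression, was 8.95 to 9.48 in controls and 8.74 to 9.60 in hypoxia, a difference of -0.07 ± 0.16. Mitochondrially encoded subunits had 0 of 13 listed genes under their symbols in the annotation and were not analysed here.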

How the data were processed

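The authors deposited log2 expression values made with RMA, per the submitters' processing notes. Its software and version and the probe set definitions: not given in the sources used here. Quantile normalization, a step of RMA, would remove a shift shared by all transcripts. Of 24128 probe sets, 112 Affymetrix controls were left out. A second deposited table held the same values. Symbols came from the platform annotation, and 13292 probe sets had 1 symbol, 86 several and 10638 none. Arrays correlated at 0.974 to 0.993 (Pearson, across probe sets, which are not independent). Array number limits the precision.

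Hypoxia was compared with control by limma 3.58.1 in R 4.3.3 (lmFit, eBayes), adjusted by Benjamini-Hochberg over 24016 probe sets, as tested on simulated data. Isoform pairs were compared by an exact permutation test over 252 assignments of calves. Complexes are described by counts and medians without a test. Values of every calf were given for the genes with the smallest p and largest difference of each complex, up to 3 of each, and for isoform pairs. COX6B2 and COX4I1 have no measured partner here. NDUFS5, NDUFS7 and NDUFV1 and the assembly factors with values were chosen after their values were seen. Members and lists were chosen with earlier results of these data known. Figures used matplotlib 3.10.9.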

Additional observations from a re-analysis of the deposited data

Results flagged for a closer look

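Among 68 groups of 5 calves checked (the means of 5 complexes, 4 isoform pairs and 25 genes, in each group), 4 held a calf whose gap to the nearest other, as a share of the group's range, exceeded 0.71, and chance gives about 1 in 20. The mean of complex III was 12.685 in control calf 176, with the nearest control at 12.551. COX6A2 was 12.101 in the same calf, with the nearest at 11.857, and its difference of -0.15 was -0.097 without calf 176 and -0.082 without calf 178. COX4I1 was 13.266 in hypoxia calf 178, with the nearest at 13.555, and NDUFB7 was 10.797 in that calf, with the nearest at 11.119. Without calf 178 the differences of COX4I1 and NDUFB7 were -0.10 and -0.25.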

How the results depend on the processing

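No member passed under median centring, quantile normalization, a filter on dim probe sets, array weights, another variance model, the calf-number run as a block, either run alone, averaged probe sets per gene, a threshold of 0.1 or without hypoxia calves 178 and 199. The count of member probe sets and of member genes was 0 to 1 with each calf left out. Over all probe sets 652 passed, and 217 with the block, 31 and 0 in the lower and upper run alone (2578 at an unadjusted p under 0.05 in the latter, where the lone control is taken to vary like the others), 155 without calves 178 and 199, 1436 at the threshold of 0.1 and 241 to 605 with each calf left out. Medians of complexes I to V ran from -0.11 to -0.05, -0.01 to 0.12, -0.04 to 0.02, -0.05 to 0.02 and -0.05 to -0.02 with each calf left out. That of complex III was -0.088 with averaged probe sets, which takes in dimmer ones.

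For COX7A2 minus COX7A1 the shift was 0.41 to 0.55 with each calf left out (exact permutation, adjusted p = 0.0317 to 0.127), and it passed with array weights (0.43, adjusted p = 0.0317) and with the dim filter (0.48, adjusted p = 0.0476), which leaves 3 pairs. COX8A minus COX8B, at -0.39 to -0.27 (adjusted p = 0.0317 to 0.159), passed with the dim filter (-0.33, adjusted p = 0.0476). COX6A1 minus COX6A2 was 0.04 to 0.25, -0.079 in the upper run and -0.084 without calves 178 and 199. NDUFA4L2 minus NDUFA4 was -0.050 to 0.085, -0.021 with quantile normalization and -0.14 in the upper run. Signs also turned for values near 0, with the cause not tested. COX6A1 was -0.0055 with median centring, -0.010 with quantile normalization, -0.045 with array weights, -0.076 in the upper run, -0.057 with averaged probe sets, -0.11 without calves 178 and 199 and -0.057 to 0.059 with each calf left out. COX6A2 was 0.0027 in the upper run, and without calves 178 and 199 COX6B2 was 0.00079 and UQCRFS1 0.020. COX8B was 0.013 with quantile normalization, 0.0065 with array weights, 0.13 in the upper run, 0.052 without calves 178 and 199 and -0.058 to 0.024 with each calf left out. No paired analysis was possible because the groups share no calf numbers.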
